A study of Mus musculus with 9 samples.

Results

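Translation initiation factors (eIFs) bring the small ribosomal subunit, the initiator tRNA and the mRNA together at the start codon. Their genes were taken from the deposited expression table as every symbol made of Eif and a number, without the Eif2ak kinases. This gave 51 of the 18049 genes listed, and 49 of them had at least 1 FPKM (a read count scaled to transcript length and library depth) in 3 or more libraries and were tested among 11309 genes. By factor, the list held 5 eIF1 genes, 6 of the eIF2 group, 5 eIF2B subunits, 14 eIF3 genes, 16 of the eIF4 group, 4 of the eIF5 group and Eif6. The untested genes were Eif4e1b, an oocyte form of the cap-binding protein, listed at 0 to 0.42 FPKM, and Eif3j2, listed at 0 to 2.17 FPKM.

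RNA came from cultured macrophages grown from bone marrow of C57BL/6 mice aged 8 weeks. Over 6 h, 3 libraries received medium only (control), 3 received 15d-PGJ2 (15-deoxy-Δ12,14-prostaglandin J2, an electrophilic cyclopentenone prostaglandin) at 1 µM, and 3 received a compound labelled 15d-PGJ2-PC at 1 µM. The labels do not spell out PC, and no structure is given for it here. The labels number the replicates without naming a culture or animal for each. The p-values therefore reflect the spread among these libraries alone, which may be technical.

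As background, eIF2 carries the initiator tRNA with GTP, eIF5 makes eIF2 hydrolyse that GTP at the start codon, and eIF2B recharges eIF2 afterwards. Kinases that phosphorylate eIF2 block this recharging in stressed cells, which is the core of the integrated stress response. The eIF4F complex (the cap-binding eIF4E, the scaffold eIF4G and the helicase eIF4A) reads the mRNA cap, 4E-binding proteins (4E-BPs) withhold eIF4E when mTORC1 is inactive, and eIF3 is a large scaffold on the small subunit. In macrophages these steps set how fast cytokine and stress mRNAs are turned into protein. The transcript levels reported here do not measure translation.

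The libraries held about 5.36 M reads each, estimated from the steps between low FPKM values, so the control level of a tested initiation factor gene stood for about 31 to 4760 reads (median 521). Initiation factor genes made up 0.709% to 0.777% of summed FPKM. All 8 listed macrophage markers (among them Adgre1, Cd68, Csf1r and Lyz2) were read in every library, and their summed level was 6476 to 6678 FPKM in control libraries, 4954 to 5313 with 15d-PGJ2 and 5794 to 5967 with 15d-PGJ2-PC, most of it Lyz2. All 8 were called lower with 15d-PGJ2 and 6 of 8 with 15d-PGJ2-PC, against 25% and 14.1% of all tested genes. Fcgr1, a high-affinity IgG receptor, was at 0.411 and Mertk, a receptor for dying cells, at 0.559 of the control mean with 15d-PGJ2. In bulk RNA, fewer cells of a type and less RNA per cell cannot be told apart. Markers of other tissues were higher in the controls: 5 epidermal genes summed to 20.1 to 24.6 FPKM against 0.51 to 1.37 in treated libraries, where Krt1, Krt5, Krt14 and Lor were at 0. Likewise 6 stromal genes summed to 36.2 to 43.0 against 7.56 to 10.4 FPKM, and 4 haemoglobin genes to 23.4 to 31.7 against 0 to 0.91. Every one of the 13 tested genes of these 3 lists was called lower with both compounds, where 25% and 14.1% of all tested genes were. Neutrophil markers summed to 17.3 to 20.6 FPKM in control libraries, 9.63 to 13.1 with 15d-PGJ2 and 16.7 to 20.2 with 15d-PGJ2-PC. Within that list Ngp, Ltf and S100a8 were called lower with 15d-PGJ2, while Mpo, the myeloperoxidase gene of granulocyte precursors, was called higher with both compounds, at 0.07 to 0.14 FPKM in controls and 1.33 to 2.38 in treated libraries. The 3 lymphocyte genes, mostly Cd79b, summed to 39.1 to 46.8, 13.9 to 17.6 and 24.6 to 29.0. The part of such RNA in the differences below was not tested.

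Start-site sequences were available in the RefSeq promoter table (GRCm38.p6) for 39 of the 51 genes. The 4 shown belong to the genes with the largest rises under 15d-PGJ2 that have an entry, so that these genes can be looked at closely; they were picked by that rise, which makes them no test of shared letters. Each run is the 250 bases before the annotated start, 5′ to 3′ on the gene's strand, in lower case, with any searched motif in capitals. Eif3j1 lies at chr2:122028330-122028579, plus strand; Eif5 at chr12:111537851-111538100, plus strand; Eif3d at chr15:77970825-77971074, minus strand; and Eif3g at chr9:20898591-20898840, minus strand.
Eif3j1: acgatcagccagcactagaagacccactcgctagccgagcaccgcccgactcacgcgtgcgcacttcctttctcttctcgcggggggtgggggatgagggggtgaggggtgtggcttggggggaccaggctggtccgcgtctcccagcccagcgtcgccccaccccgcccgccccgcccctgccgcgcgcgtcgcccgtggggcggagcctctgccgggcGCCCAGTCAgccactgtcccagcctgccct
Eif5: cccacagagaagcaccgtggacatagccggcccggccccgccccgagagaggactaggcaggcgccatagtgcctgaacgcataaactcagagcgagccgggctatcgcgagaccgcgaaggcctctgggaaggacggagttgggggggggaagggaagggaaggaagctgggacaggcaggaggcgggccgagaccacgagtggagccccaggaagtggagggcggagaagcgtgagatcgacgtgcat
Eif3d: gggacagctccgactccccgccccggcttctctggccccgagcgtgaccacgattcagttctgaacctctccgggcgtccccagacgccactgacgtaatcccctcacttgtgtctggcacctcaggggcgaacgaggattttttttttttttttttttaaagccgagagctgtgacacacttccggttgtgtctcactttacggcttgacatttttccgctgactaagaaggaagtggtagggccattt
Eif3g: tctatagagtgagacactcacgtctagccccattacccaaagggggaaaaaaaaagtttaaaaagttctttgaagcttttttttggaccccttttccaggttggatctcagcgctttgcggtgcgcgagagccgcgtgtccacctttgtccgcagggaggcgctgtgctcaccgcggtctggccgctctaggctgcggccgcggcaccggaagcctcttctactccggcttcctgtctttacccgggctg
The 4 motifs, searched on both strands, were the antioxidant response element core TGACNNNGC (whose opening letters AP-1 and CRE sites share), the heat shock element, the ATF4 element TGATGNAA and the E-box CACGTG. In these runs the only match is the antioxidant response element core of Eif3j1, read on the opposite strand as GCCCAGTCA. Over the 39 genes, that core was present in 7 (17.9%, against 14.1% of 9022 tested genes with an entry, counting a match in any entry of a gene): Eif1, Eif2d, Eif2s3y, Eif3a, Eif3j1, Eif5a and Eif5a2. The E-box was present in 9 (23.1% against 10.3%): Eif1b, Eif3f, Eif3k, Eif4a1, Eif4e, Eif4g1, Eif4h, Eif5a and Eif5a2. The ATF4 element was present in Eif2s3x alone (2.56% against 2.5%) and the heat shock element in none (0% against 0.499%). A match is a description of letters and not a site in use.

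With 15d-PGJ2, 20 of the 49 tested initiation factor genes rose and 5 fell against control, where 22.2% of all tested genes rose and 25% fell (47.2% called in all). The remaining 24 did not pass. The risers were led by Eif3j1, Eif5, Eif4ebp1, Eif3d and Eif6, and the genes that fell were Eif4e3, Eif4g3, Eif5b, Eif1b and Eif4a2. Changes were modest: the largest rise was 1.80-fold, 3 genes differed by over 0.5 on the log2(FPKM + 1) scale, and the median difference was 0.10 against -0.02 over all tested genes. The 3 treated libraries all lay above the 3 controls for 22 of the genes and below them for 6, against 26.3% and 28.8% of all tested genes (55.1% without overlap in either direction). Calls were made with limma on log2(FPKM + 1), adjusted by Benjamini-Hochberg over all 11309 genes, at 0.05. Under quantile normalization 23 genes rose in place of 20 and 3 fell in place of 5, and without limma's intensity trend 17 rose.

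With 15d-PGJ2-PC, 7 genes rose (Eif2s2, Eif3a, Eif3d, Eif3g, Eif3j1, Eif4ebp1 and Eif5) and 2 fell (Eif4e3 and Eif5b), with 40 that did not pass. Over all tested genes 13.8% rose and 14.1% fell (27.8% called in all). The treated libraries all lay above the controls for 16 members and below them for 2, against 20.5% and 21.3% of all tested genes (41.8% without overlap in either direction). The median difference was 0.05, and the range ran from -0.29 for Eif4e3 to 0.54 for Eif5. Quantile normalization gave 13 rises and 1 fall. Without 15d-PGJ2-PC replicate 2 or 3 no initiation factor gene fell, and without control replicate 1, 2 or 3 or 15d-PGJ2-PC replicate 1 only 1 did. Without control replicate 3 that gene was Eif5a (adjusted p = 0.0173 by limma), and neither Eif4e3 nor Eif5b passed. Both compounds were compared with the same 3 control libraries, so their differences from control are not independent of each other.

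**Figure D1:**
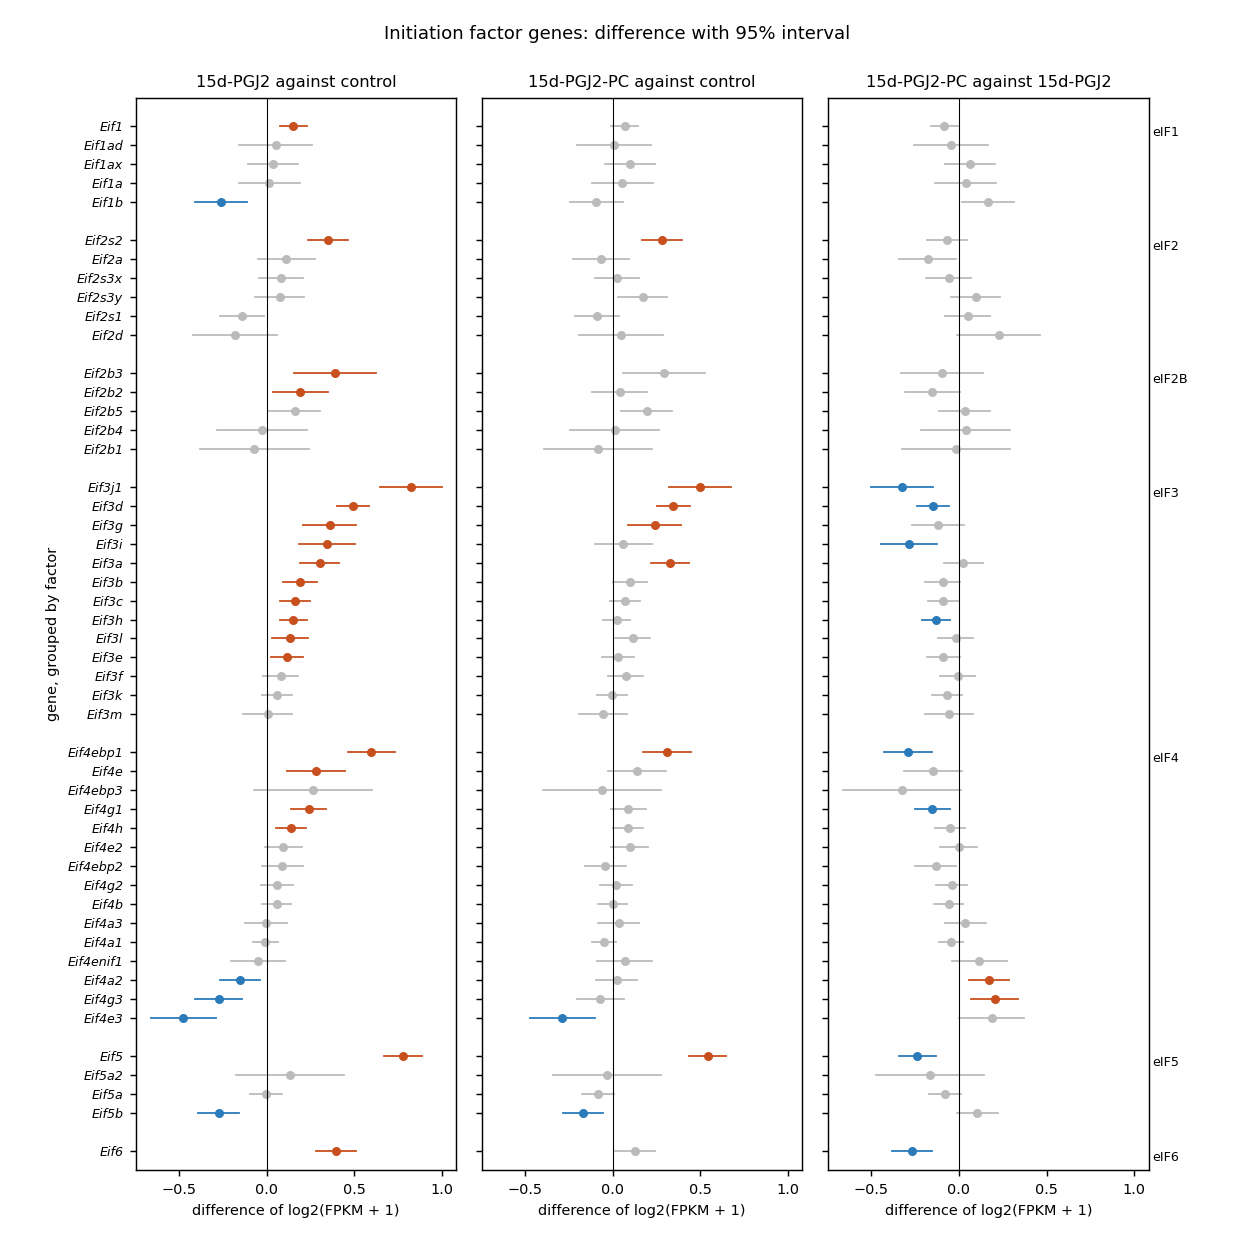
Difference of log2(FPKM + 1) for the 49 tested initiation factor genes (points, with 95% intervals) in the 3 comparisons, grouped by factor on the vertical axis; orange marks genes called higher, blue genes called lower and grey genes not called. In the 15d-PGJ2 panel 20 genes are orange and 5 blue, and 10 of the orange ones are eIF3 subunits.

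Among the scanning factors, Eif1, which keeps the scanning ribosome selective for the right start codon, rose under 15d-PGJ2 while its paralog Eif1b fell. Eif1 went from 326 ± 8.38 to 363 ± 14.9 FPKM (SD, n = 3 per group) and was at 342 ± 1.57 with 15d-PGJ2-PC (log2 differences 0.15 and 0.07, adjusted p = 0.00446 and 0.178 by limma). The second of these passed with quantile normalization (0.0137). Eif1b went from 39.2 ± 0.67 to 32.7 ± 3.21 FPKM and was at 36.7 ± 1.61 with 15d-PGJ2-PC. Its adjusted p under 15d-PGJ2 was 0.00912, and 0.0504 with quantile normalization (range over the alternatives 0.00527 to 0.0504). The eIF1A genes Eif1a and Eif1ax and the related Eif1ad passed in no comparison, with differences from control of 0.01 to 0.10.

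Of the 4 genes of the eIF2 trimer, 1 passed the test. Over all tested genes 47.2% were called with 15d-PGJ2 and 27.8% with 15d-PGJ2-PC. The β subunit gene Eif2s2 (Entrez 67204, GRCm38 chromosome 2, 154871410 to 154892906) was read at 66.97, 59.24 and 65.91 FPKM in the controls, 78.07, 83.19 and 84.07 with 15d-PGJ2, and 78.95, 77.15 and 77.70 with 15d-PGJ2-PC. Both treated groups lay wholly above the controls. The log2 differences were 0.35 (SE 0.05, adjusted p = 0.000228) and 0.28 (SE 0.05, adjusted p = 0.002). The α subunit gene Eif2s1, which encodes the protein that the stress kinases phosphorylate, was at 27.94, 31.26 and 29.61 FPKM in control libraries, 25.99, 27.83 and 26.47 with 15d-PGJ2, and 28.99, 26.50 and 27.74 with 15d-PGJ2-PC. It did not pass (adjusted p = 0.068 and 0.286), although without control replicate 1 the first of these was 0.039. The γ subunit is encoded by the X-linked Eif2s3x and its Y-linked copy Eif2s3y, read at 34.1 to 40.0 and 20.6 to 25.3 FPKM over the 9 libraries. Neither passed, and their transcripts match at 86.4% over 1426 bases, so reads may be shared. The FPKM ratio of Eif2s2 to Eif2s1 was 1.90 to 2.40 in controls, 2.99 to 3.18 with 15d-PGJ2 and 2.72 to 2.91 with 15d-PGJ2-PC. This and the other ratios below were chosen after the values were seen and carry no test. Eif2a and Eif2d, which encode tRNA-delivering proteins outside the trimer, passed in no comparison of the main design.

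Of the 5 genes of eIF2B, the exchange factor that recharges eIF2, Eif2b3 and Eif2b2 rose with 15d-PGJ2 and none passed with 15d-PGJ2-PC. Of all tested genes, 22.2% rose with 15d-PGJ2 and 47.2% were called, against 13.8% and 27.8% with 15d-PGJ2-PC. Eif2b3, for the γ subunit, was at 5.05, 6.36 and 7.11 FPKM in control libraries, 8.26, 8.14 and 8.63 with 15d-PGJ2, and 7.59, 7.33 and 8.29 with 15d-PGJ2-PC. The treated libraries were all above the controls, by 0.39 (SE 0.11, adjusted p = 0.0106) and 0.29 (SE 0.11, adjusted p = 0.062), and the second passed without control replicate 3 (0.0211). Its control level stood for about 87.8 reads. Eif2b2 rose from 20.6 ± 0.76 to 23.6 ± 1.30 FPKM (adjusted p = 0.0472), a call lost when any control library, replicate 1 or 3 of 15d-PGJ2 or replicate 2 of 15d-PGJ2-PC was left out (0.0525 to 0.133), with no filter (0.069) and with no trend (0.0659). Eif2b5, the catalytic subunit, was at 13.93, 15.93 and 15.56 FPKM in control libraries, 16.63, 17.06 and 17.32 with 15d-PGJ2, and 17.36, 18.47 and 16.48 with 15d-PGJ2-PC. All 6 treated values exceed the 3 control values, but the differences of 0.16 and 0.19 did not pass (adjusted p = 0.0714 and 0.0535). The former passed with median ratio scaling (0.0482), and the latter without 15d-PGJ2-PC replicate 3 (0.0482) or with a filter of 5 FPKM (0.0407). Eif2b1 and Eif2b4 differed from control by -0.08 to 0.01.

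Of the 13 tested eIF3 genes, 10 rose with 15d-PGJ2 and none fell, against 22.2% and 25% of all tested genes. With 15d-PGJ2-PC 4 rose (Eif3a, Eif3d, Eif3g and Eif3j1), against 13.8%. Summed over its 14 listed genes, eIF3 was at 1117 ± 9.43 FPKM in control libraries, 1287 ± 9.76 with 15d-PGJ2 and 1207 ± 7.71 with 15d-PGJ2-PC. The 8 subunits of the PCI/MPN core, the structural centre of the complex, had a median difference of 0.12 with 15d-PGJ2, and 5 of them rose. All 5 tested subunits outside that core (Eif3b, Eif3d, Eif3g, Eif3i and Eif3j1) rose, with a median of 0.36. That split follows the known architecture but was made after the values were seen, and the difference between the classes was not tested.

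**Figure D2:**
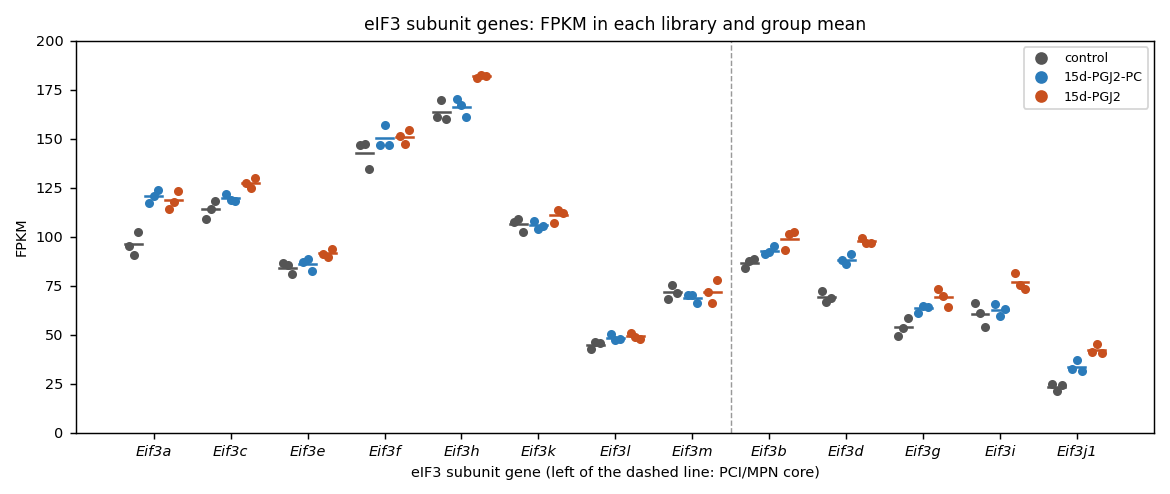
FPKM of the 13 tested eIF3 subunit genes (horizontal axis) in each library (points) with group means (lines), for control, 15d-PGJ2-PC and 15d-PGJ2. Subunits left of the dashed line belong to the PCI/MPN core; Eif3j1 has the lowest control mean, 23.5 FPKM, and Eif3h the highest, 164 FPKM.

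Eif3j1, which encodes a loosely bound subunit that sits near the mRNA entry channel (Entrez 78655, chromosome 2, 122028580 to 122053632; start-site sequence above), had the largest difference of any member. It was read at 24.96, 21.26 and 24.23 FPKM in control libraries, 41.10, 45.19 and 40.48 with 15d-PGJ2, and 32.28, 37.11 and 31.36 with 15d-PGJ2-PC. The 3 groups did not overlap, with 15d-PGJ2-PC between the others. The rises were 0.82 (SE 0.08, adjusted p = 9.32e-06) and 0.50 (SE 0.08, adjusted p = 0.000841). The transcript of Eif3j2 matches that of Eif3j1 at 99.4% over its whole 2379 bases, so reads may be split between them and the Eif3j1 values are uncertain to that extent.

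Eif3d, whose protein can itself bind the cap of some mRNAs (Entrez 55944, chromosome 15, 77958998 to 77970824), was at 72.50, 66.41 and 68.93 FPKM in control libraries, 99.50, 96.76 and 96.96 with 15d-PGJ2, and 87.91, 85.96 and 90.92 with 15d-PGJ2-PC. Again the groups did not overlap, and the rises were 0.49 (SE 0.04, adjusted p = 3.36e-06) and 0.35 (SE 0.04, adjusted p = 0.000124). Eif3g, an RNA-binding subunit of the b-g-i module, was at 49.16, 53.45 and 58.29, then 73.47, 69.80 and 63.87, then 61.10, 64.71 and 64.24 FPKM in the same order of groups. Both treated groups lay above the controls, by 0.36 (adjusted p = 0.00126) and 0.24 (adjusted p = 0.0228). The second call was lost without control replicate 1 or 2 or 15d-PGJ2-PC replicate 2 or 3 (0.0588 to 0.0828), and with no trend (0.0531).

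Its partner Eif3i, a WD-repeat protein, was at 66.29, 60.93 and 53.84 FPKM in control libraries, 81.55, 75.06 and 73.47 with 15d-PGJ2, and 65.59, 59.74 and 63.05 with 15d-PGJ2-PC. Only the 15d-PGJ2 libraries stood above the controls (0.34, SE 0.07, adjusted p = 0.00266), while the 15d-PGJ2-PC values overlapped them (0.06, adjusted p = 0.591). Eif3a, the largest subunit, behaved in another way: 95.21, 90.60 and 102.29 FPKM in control libraries, 114.25, 117.79 and 123.48 with 15d-PGJ2, and 117.00, 120.97 and 123.98 with 15d-PGJ2-PC. Its rises were 0.30 (adjusted p = 0.000513) and 0.33 (adjusted p = 0.000593), and the treated groups overlapped each other.

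Eif3b, Eif3c, Eif3h, Eif3l and Eif3e rose with 15d-PGJ2 by 0.12 to 0.19 and did not pass with 15d-PGJ2-PC, where quantile normalization made Eif3b (0.0309) and Eif3l (0.0265) pass. The calls of Eif3e and Eif3l were the least steady: that of Eif3e was lost when control 2 or 3, any 15d-PGJ2 library or 15d-PGJ2-PC replicate 1 was left out (0.0522 to 0.121), and with no trend (0.0964). That of Eif3l was lost when control 1 or replicate 1 or 2 of 15d-PGJ2 was left out (0.0725 to 0.127), with no trend (0.0697) and with the 6 libraries of the contrast (0.0545). Eif3f, Eif3k and Eif3m passed in no comparison, at 143 ± 7.19, 106 ± 3.25 and 71.5 ± 3.46 FPKM in controls.

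**Figure D3:**
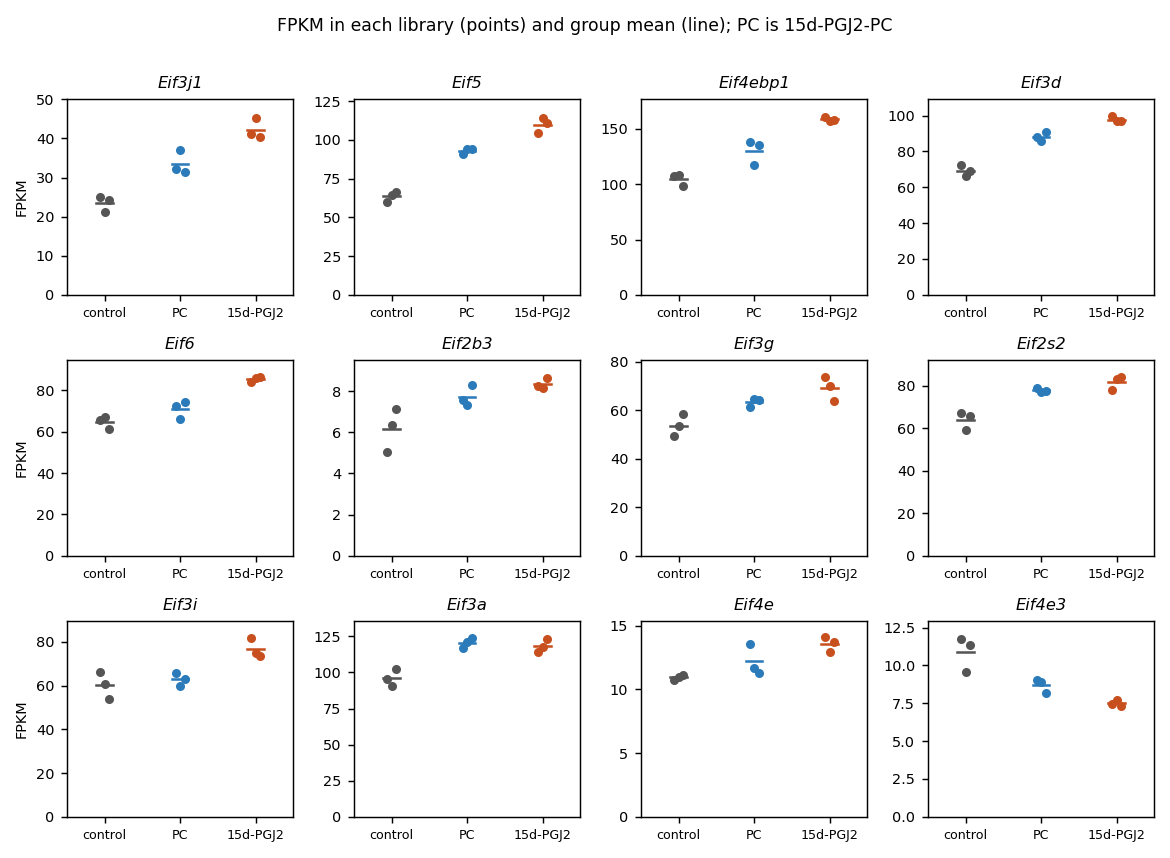
FPKM of 12 initiation factor genes in each library (points; lines are means of 3 libraries) for control, 15d-PGJ2-PC (PC) and 15d-PGJ2; each vertical axis starts at 0. In Eif3j1, Eif5, Eif4ebp1 and Eif3d the 3 groups are separate, with 15d-PGJ2-PC in the middle, and Eif4e3 runs in the opposite direction.

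In the cap-binding group, the gene of the main eIF4E inhibitor changed most. Eif4ebp1, which encodes 4E-BP1 (Entrez 13685, chromosome 8, 27260327 to 27275656), was read at 107.36, 108.69 and 98.02 FPKM in control libraries, 160.85, 157.00 and 158.53 with 15d-PGJ2, and 137.77, 117.28 and 135.40 with 15d-PGJ2-PC. The groups did not overlap, and the rises were 0.60 (SE 0.06, adjusted p = 1.48e-05) and 0.31 (SE 0.06, adjusted p = 0.00337). The other 4E-BP genes did not pass: Eif4ebp2 was at 44.9 ± 1.90, 47.8 ± 2.44 and 43.6 ± 1.46 FPKM, and Eif4ebp3, with about 31 reads in controls, at 7.76 ± 1.45, 9.44 ± 0.617 and 7.44 ± 1.64 (control, 15d-PGJ2 and 15d-PGJ2-PC). With quantile normalization Eif4ebp2 was higher with 15d-PGJ2 than in control (0.16, adjusted p = 0.0237) and lower with 15d-PGJ2-PC than with 15d-PGJ2 (-0.17, adjusted p = 0.0388).

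Eif4e, the canonical cap-binding protein, was at 10.75, 10.97 and 11.15 FPKM in control libraries, 14.06, 12.92 and 13.67 with 15d-PGJ2, and 13.58, 11.70 and 11.27 with 15d-PGJ2-PC. All treated libraries exceeded the controls, but only the difference with 15d-PGJ2 passed (0.28, SE 0.07, adjusted p = 0.0097, against 0.14, adjusted p = 0.21). On the per-length FPKM scale Eif4ebp1 stood 9.56 ± 0.67 times above Eif4e in controls, 11.7 ± 0.37 times with 15d-PGJ2 and 10.7 ± 1.12 times with 15d-PGJ2-PC. Eif4e3, a divergent cap-binding paralog (Entrez 66892, chromosome 6, 99621879 to 99692873), fell instead: 11.76, 9.56 and 11.32 FPKM in control libraries, 7.46, 7.74 and 7.34 with 15d-PGJ2, and 9.02, 8.89 and 8.20 with 15d-PGJ2-PC. Both treated groups were below the controls, by -0.48 (SE 0.08, adjusted p = 0.000779) and -0.29 (SE 0.08, adjusted p = 0.0253). The second call was lost when control 1 or 3 or replicate 2 or 3 of 15d-PGJ2-PC was left out (0.0513 to 0.0953). Eif4e2, a cap-binding repressor of translation, did not pass (0.10 with each compound, and adjusted p = 0.028 for 15d-PGJ2 with quantile normalization), nor did the eIF4E transporter gene Eif4enif1.

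Of the 3 scaffold genes of the eIF4G family, Eif4g1 rose, Eif4g3 fell and Eif4g2 did not pass with 15d-PGJ2. Eif4g1, the main scaffold, was at 83.69, 86.15 and 91.85 FPKM in control libraries, 104.96, 105.85 and 98.63 with 15d-PGJ2, and 91.29, 92.64 and 94.33 with 15d-PGJ2-PC. It rose with 15d-PGJ2 (0.24, SE 0.04, adjusted p = 0.00116) and did not pass with 15d-PGJ2-PC (0.09, adjusted p = 0.174, or 0.0429 with quantile normalization). Eif4g3, the second full-length scaffold, fell with 15d-PGJ2 from 27.1 ± 1.18 to 22.2 ± 1.10 FPKM (adjusted p = 0.00362) and was at 25.8 ± 1.49 with 15d-PGJ2-PC. The ratio of Eif4g1 to Eif4g3 was 3.18 to 3.25 in controls, 4.51 to 4.89 with 15d-PGJ2 and 3.50 to 3.79 with 15d-PGJ2-PC. Eif4g2, which encodes DAP5, a scaffold that does not bind eIF4E, was at 149.15, 150.73 and 161.99 FPKM in control libraries, 155.01, 164.41 and 161.89 with 15d-PGJ2, and 152.31, 157.46 and 157.99 with 15d-PGJ2-PC. Its libraries overlapped in every comparison.

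Among helicases, Eif4a1 stayed within 246 to 266 FPKM over all 9 libraries, with 95% intervals of -0.08 to 0.06 for 15d-PGJ2 and -0.12 to 0.02 for 15d-PGJ2-PC. Its values were 257.68, 252.14 and 266.32 in controls, 259.56, 260.56 and 252.31 with 15d-PGJ2, and 246.33, 252.24 and 250.64 with 15d-PGJ2-PC. Eif4a2 was at 85.37, 88.72 and 88.20 FPKM in control libraries, 75.37, 74.86 and 85.85 with 15d-PGJ2, and 89.34, 89.15 and 87.76 with 15d-PGJ2-PC. It fell with 15d-PGJ2 (-0.15, adjusted p = 0.0314), with 15d-PGJ2 replicate 3 inside the control range. That call was lost when control 2 or 3 or replicate 1 or 2 of 15d-PGJ2 was left out (0.0716 to 0.115), with both rescalings, with no trend and with the 6 libraries of the contrast (0.0547 to 0.301). Eif4a3, the helicase of the exon junction complex, and Eif4b did not pass, although Eif4b did for 15d-PGJ2 with quantile normalization (0.0493). Eif4h, like Eif4b a helicase cofactor, rose with 15d-PGJ2 from 107 ± 3.64 to 118 ± 0.466 FPKM (adjusted p = 0.0121), and passed with 15d-PGJ2-PC under quantile normalization alone of the settings that keep all libraries (0.0351).

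Of the factors that act at the start codon and at subunit joining, Eif5 rose and Eif5b fell with both compounds. Eif5, the GTPase-activating protein for eIF2 (Entrez 217869, chromosome 12, 111538101 to 111546753; start-site sequence above), was at 60.07, 64.60 and 66.46 FPKM in control libraries, 104.20, 114.39 and 110.96 with 15d-PGJ2, and 90.73, 94.27 and 94.18 with 15d-PGJ2-PC. Its 3 groups did not overlap. The rises were 0.78 (SE 0.05, adjusted p = 3.18e-07) and 0.54 (SE 0.05, adjusted p = 1.63e-05), the smallest adjusted p of any member in both comparisons with control. Eif5b, the GTPase that joins the large subunit, was at 46.27, 49.43 and 51.28 FPKM in control libraries, 38.05, 41.49 and 41.54 with 15d-PGJ2, and 42.52, 43.66 and 44.13 with 15d-PGJ2-PC. Both treated groups lay wholly below the controls. It fell with 15d-PGJ2 (-0.27, adjusted p = 0.00144) and with 15d-PGJ2-PC (-0.17, adjusted p = 0.0345). The latter call was lost when control 2 or 3 or any 15d-PGJ2-PC library was left out (0.0624 to 0.113), with quantile normalization (0.103) and with no trend (0.0686). The ratio of Eif5 to Eif5b was 1.30 to 1.31 in controls, 2.67 to 2.76 with 15d-PGJ2 and 2.13 to 2.16 with 15d-PGJ2-PC, with no overlap between groups.

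Eif5a, the hypusine-bearing factor that helps peptide bonds form, had the highest control mean of the list, 342 FPKM. It was at 356.94, 347.58 and 320.30 FPKM in control libraries, 347.80, 334.26 and 339.15 with 15d-PGJ2, and 329.81, 323.67 and 313.50 with 15d-PGJ2-PC, and did not pass (adjusted p = 0.95 and 0.176). Without control replicate 3 the second of these was 0.0173. Its paralog Eif5a2 had the lowest mean of the tested genes, 1.72 FPKM in controls. Eif6, which keeps the large subunit from joining too early and acts in its assembly (Entrez 16418, chromosome 2, 155819837 to 155826925), was at 65.81, 67.25 and 61.42 FPKM in control libraries, 84.22, 85.97 and 86.44 with 15d-PGJ2, and 72.24, 66.22 and 74.51 with 15d-PGJ2-PC. Only 15d-PGJ2 stood clear of the controls (0.40, SE 0.05, adjusted p = 8.94e-05). The difference with 15d-PGJ2-PC was 0.13 (adjusted p = 0.0905), and 0.0277 without 15d-PGJ2-PC replicate 2 or 0.0388 with quantile normalization.

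The compounds were compared directly at 1 µM and 6 h, as 1 pair. Levels with 15d-PGJ2-PC were lower than with 15d-PGJ2 for 8 of the 49 genes and higher for 2, against 8.3% and 12.3% of all tested genes (20.6% called in all), with a median of -0.06. The libraries with 15d-PGJ2-PC all lay below those with 15d-PGJ2 for 15 members and above them for 7, against 16.7% and 20.5% of all tested genes (37.3% without overlap in either direction). The lower genes were Eif5 (-0.24, SE 0.05, adjusted p = 0.006), Eif4ebp1 (-0.29, SE 0.06, adjusted p = 0.00697), Eif6 (-0.27, SE 0.05, adjusted p = 0.00398), Eif3j1 (-0.32), Eif3i (-0.28), Eif4g1 (-0.15), Eif3d (-0.15) and Eif3h (-0.13). The higher genes were Eif4g3 (0.20) and Eif4a2 (0.17). Only Eif5, Eif4ebp1 and Eif6 passed under every alternative tried. The number of lower genes was 4 or 5 when replicate 1 or 2 of 15d-PGJ2 or replicate 2 or 3 of 15d-PGJ2-PC was left out, and 5 without the intensity trend. Neither higher gene passed with either rescaling, without the filter, without the trend or with the 6 libraries of the comparison alone, nor when 15d-PGJ2 replicate 1 or 15d-PGJ2-PC replicate 2 or 3 was left out. Only 1 of them passed when control 2, 15d-PGJ2 replicate 2 or 3 or 15d-PGJ2-PC replicate 1 was left out. For members that passed with both compounds yet not between them, the interval of the difference bounds what these libraries allow: -0.18 to 0.05 for Eif2s2, -0.08 to 0.14 for Eif3a, -0.27 to 0.03 for Eif3g, 0.00 to 0.37 for Eif4e3 and -0.01 to 0.22 for Eif5b. A p above the threshold does not show that the compounds act alike on these genes.

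Other genes of translation were read from 6 lists holding 53 genes, 52 of them tested. With 15d-PGJ2, 17 rose and 10 fell, and with 15d-PGJ2-PC 9 rose and 5 fell, with medians of 0.03 and 0.00. Over all tested genes 47.2% and 27.8% were called, 22.2% and 13.8% higher and 25% and 14.1% lower, and the counts of each list below are to be read against these shares. Between compounds 5 were higher and 9 lower with 15d-PGJ2-PC, against 12.3% and 8.3% of all tested genes (20.6% called in all). When control 2 was left out, 6 fell with 15d-PGJ2. Between the compounds 3 were higher when 15d-PGJ2 replicate 1 was left out, and 5 were lower when replicate 2 of either compound was.

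Around eIF2 phosphorylation, 3 of 8 genes rose with each compound, and 2 fell with 15d-PGJ2 and 1 with 15d-PGJ2-PC (47.2% and 27.8% of all tested genes called). Ppp1r15a, the stress-induced subunit of the phosphatase that reverses it, was at 18.32, 19.98 and 18.06 FPKM in control libraries, 47.76, 55.02 and 53.23 with 15d-PGJ2, and 43.50, 42.38 and 46.00 with 15d-PGJ2-PC (1.42 and 1.18, adjusted p = 2.98e-08 and 5.22e-07). Its constitutive counterpart Ppp1r15b did not pass. The eIF2 kinase gene Eif2ak2, which encodes the interferon-induced PKR, fell from 33.64, 33.61 and 38.78 FPKM to 7.96, 8.50 and 9.39 with 15d-PGJ2 and to 20.05, 21.38 and 21.68 with 15d-PGJ2-PC. Those groups did not overlap (-1.92 and -0.72, adjusted p = 1.24e-08 and 5.09e-05, and 1.20 between compounds, adjusted p = 4.91e-06). Eif2ak3, the kinase PERK of the endoplasmic reticulum, fell with 15d-PGJ2 (-0.24, adjusted p = 0.0459), a call lost without control replicate 2 or 3, 15d-PGJ2 replicate 1 or 2 or 15d-PGJ2-PC replicate 1 or 3 and under 5 other settings (0.0509 to 0.136). Eif2ak1 and Eif2ak4, the haem- and amino acid-regulated kinases, did not pass. Atf4 and Ddit3, transcription factors downstream of phosphorylated eIF2, made up the other rises: Atf4 by 0.45 and 0.52, Ddit3 by 0.23 and 0.35.

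In the list of mTORC1 and eIF4E kinases, 5 of 13 genes rose and 3 fell with 15d-PGJ2, and 3 rose and 2 fell with 15d-PGJ2-PC (47.2% and 27.8% of all tested genes called). Akt1s1, an inhibitory mTORC1 subunit, was at 55.76, 50.58 and 49.23 FPKM in control libraries, 91.69, 90.27 and 90.83 with 15d-PGJ2, and 72.78, 60.10 and 69.33 with 15d-PGJ2-PC (0.80 and 0.37, adjusted p = 3.82e-06 and 0.00235). The mTORC1 activator gene Rheb rose by 0.53 and 0.38, and the subunit genes Mlst8 and Rptor by 0.52 and 0.47 with 15d-PGJ2. With 15d-PGJ2-PC Mlst8 rose by 0.32 (adjusted p = 0.014) and Rptor did not pass (adjusted p = 0.167). That Mlst8 call was lost without control 1 or 15d-PGJ2-PC replicate 1 or 2 (0.0522 to 0.0547). Mtor, the catalytic subunit, fell with 15d-PGJ2 (-0.21, adjusted p = 0.0283), a call lost when control 2 or 3 or 15d-PGJ2 replicate 1 or 2 was left out (0.0562 to 0.0957) and with the 6 libraries of the contrast (0.0533). Ddit4, a stress-induced mTORC1 inhibitor, fell by 1.55 and 0.88 on the log2 scale. The eIF4E kinase gene Mknk1 fell by 0.33 and 0.17 (adjusted p = 0.000683 and 0.0474 by limma). Its second call was lost without control 1 or 3, 15d-PGJ2 replicate 1 or 3 or any 15d-PGJ2-PC library (0.0547 to 0.151). Quantile normalization, no filter, no trend, the 6 libraries of the contrast and the replicate block also ended it (0.062 to 0.117).

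Among initiation cofactors 3 of 17 genes rose and 4 fell with 15d-PGJ2, and 1 rose and 2 fell with 15d-PGJ2-PC (47.2% and 27.8% of all tested genes called). Denr, whose protein works with MCTS1 in recycling and re-initiation, was at 45.87, 47.75 and 48.19 FPKM in control libraries, 25.73, 26.42 and 26.46 with 15d-PGJ2, and 36.40, 35.37 and 37.40 with 15d-PGJ2-PC. The groups did not overlap (-0.83 and -0.37, adjusted p = 8.26e-08 and 0.000107), while Mcts1 did not pass (adjusted p = 0.211 and 0.867). The eIF5 mimic genes Bzw1 and Bzw2 did not pass either, nor did the hypusine enzymes Dhps and Dohh that modify eIF5A. Larp1 and the poly(A)-binding protein gene Pabpc1 rose with 15d-PGJ2 by 0.31 and 0.16, and the helicase gene Ddx3x fell by 0.21. With 15d-PGJ2-PC Ddx3x fell by 0.23 (adjusted p = 0.00168), Larp1 rose by 0.15 (adjusted p = 0.0272) and Pabpc1 did not pass. That Larp1 call was lost without control 1 or 2 or 15d-PGJ2-PC replicate 3 (0.0739 to 0.101). It was also lost with no trend (0.0559) and with the 6 libraries of the contrast (0.0517).

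Of the 8 genes of the elongation list 4 rose (Eef1b2, Eef1e1, Eef1g and Eef2) and Eef2k fell with 15d-PGJ2. Eef1g alone rose with 15d-PGJ2-PC (47.2% and 27.8% of all tested genes called). The Eef1e1 libraries overlapped the controls (0.30, adjusted p = 0.0342 by limma). That call was lost without control 1 or 2 or 15d-PGJ2 replicate 2 or 3 (0.065 to 0.126). It was also lost with no filter, no trend or the 6 libraries of the contrast (0.0528 to 0.0662). With quantile normalization the elongation factor gene Eef2 no longer passed with 15d-PGJ2 (0.02, adjusted p = 0.467), while Eef1a1, the tRNA-delivering factor, was called higher with both compounds (0.0459, adjusted p = 0.00923 and 0.0159). In the main design Eef1a1 differed by -0.01 with each compound (adjusted p = 0.721 and 0.771 by limma), and its libraries overlapped those of the controls. Quantile normalization sets values by rank. Lyz2 stood above Eef1a1 in every control library (3815 to 4056 against 3670 to 3785 FPKM) and below it in every treated one. The quantile calls of Eef1a1 thus record its rank and not a higher level. Eef1g, a subunit of the eEF1 exchange complex, was at 284 FPKM in control libraries, 378 with 15d-PGJ2 and 328 with 15d-PGJ2-PC (0.41 and 0.21, adjusted p = 8.04e-07 and 0.000358). Of 3 tested termination and recycling genes, Gspt1, the GTPase eRF3a, rose with both compounds (0.55 and 0.36), Abce1 with 15d-PGJ2 (0.19), and Etf1 with neither. None of the 3 mitochondrial initiation genes (Mtif2, Mtif3 and Mtfmt) passed by limma in any comparison, and 0 of them had an unadjusted p under 0.05.

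**Figure D4:**
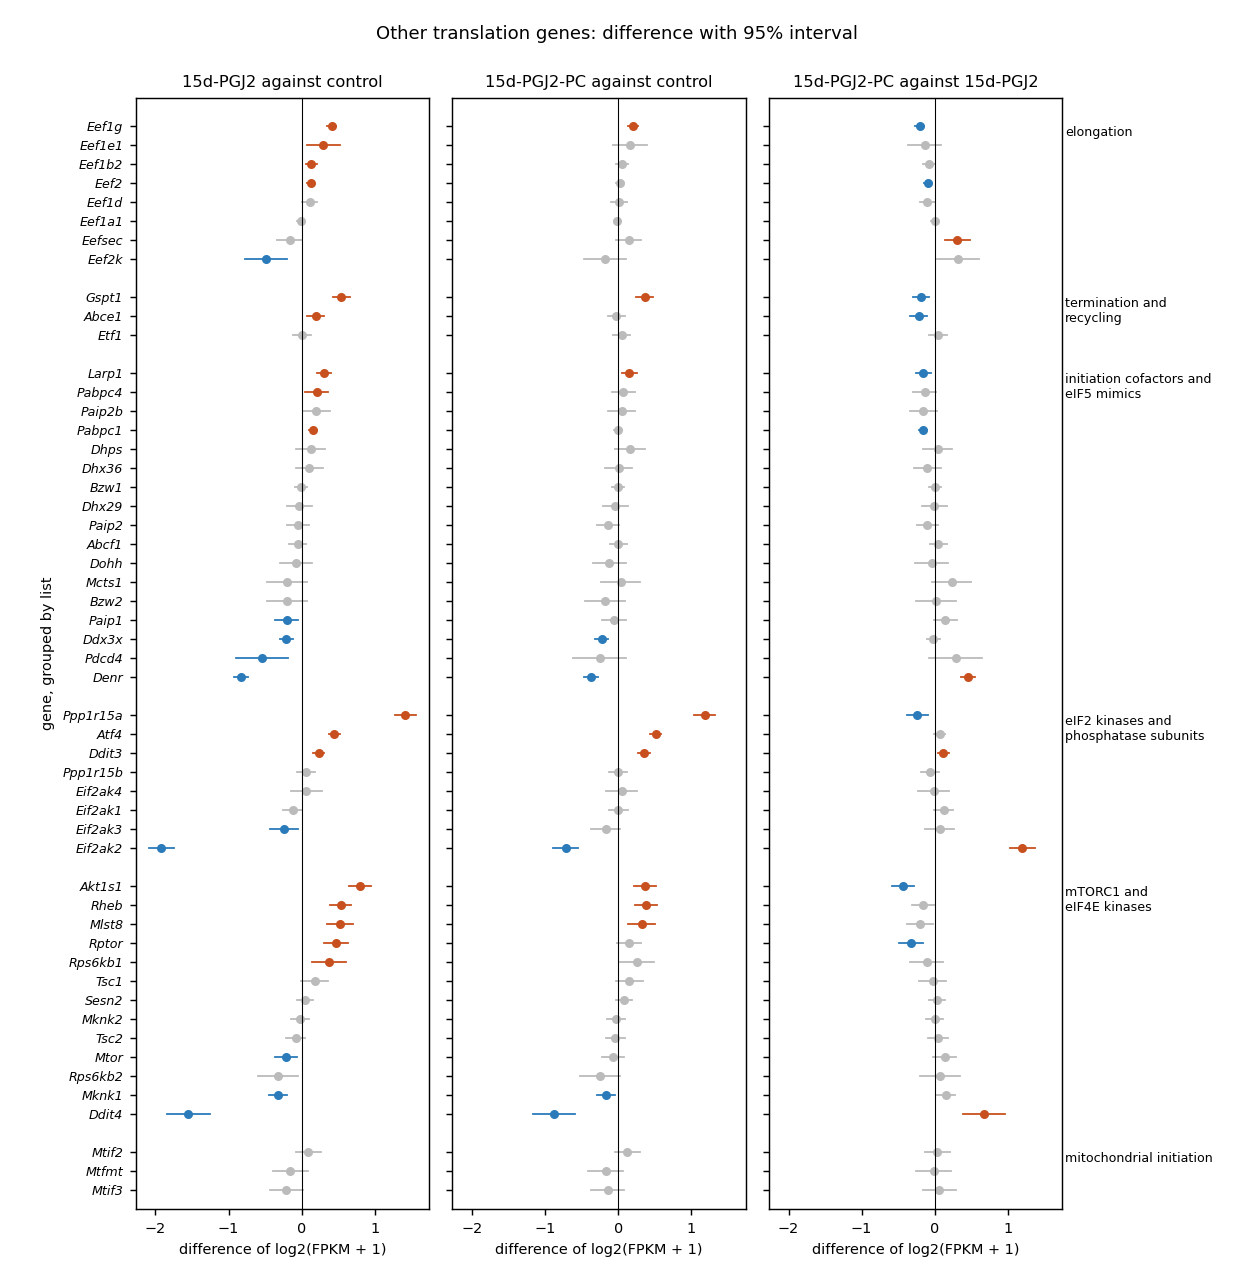
Difference of log2(FPKM + 1) for the 52 tested genes of the 6 other translation lists (points, with 95% intervals) in the 3 comparisons; orange marks genes called higher, blue genes called lower and grey genes not called. Ppp1r15a, at 1.42 with 15d-PGJ2, lies farthest to the right and Eif2ak2, at -1.92, farthest to the left.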

How the data were processed

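RNA of 9 libraries was sequenced by the submitters after Trizol extraction and Illumina TruSeq preparation, per the labels' protocols. The authors deposited 1 table of FPKM values with 2 decimals, per the file headers. Alignment used BWA against mm10, per the submitters' processing notes. The version of that aligner and the read counter were not given in the sources used here. All 9 sample columns were used as deposited.

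FPKM is not a count, so values were moved to log2(FPKM + 1), which understates fold changes of genes near 1 FPKM. Genes reaching 1 FPKM in 3 or more libraries were tested with limma 3.58.1 (R 4.3.3), with an intensity trend, 1 variance per gene over all 9 libraries, no covariate and 2-sided p-values adjusted by Benjamini-Hochberg within each of 3 contrasts, threshold 0.05. Every adjusted p is from this test, and intervals are 95%. The script was tested on simulated data. Fold values are ratios of mean FPKM.

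Depth was read from 83 genes whose low values are whole multiples of their smallest value (tolerance 0.06 of a step), with GENCODE M21 transcript lengths; it is the median of 30 genes in the densest 0.5 M window (5.14 to 5.57 M). Transcript identity came from blastn 2.17.0 on GENCODE M21 transcripts, and coordinates, found for all 51 genes by Entrez number, from RefSeq on GRCm38.p6, the assembly that mm10 names.

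The members and lists were chosen with earlier results of these data known. Values in every library are given for the called members among the 12 largest differences of 15d-PGJ2 and the 6 largest of each other contrast, for 10 fixed genes, and of the lists for some of the up to 4 genes with the smallest p. Other list genes named were picked after their values were seen. Alternatives were another scaling, pseudocount, filter, no trend, fewer libraries, a replicate block and each library left out.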

Additional observations from a re-analysis of the deposited data

How the results depend on the processing

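Over 17 alternatives no called initiation factor gene changed direction. With 15d-PGJ2, 20 of the 25 called genes passed in every alternative, with 15d-PGJ2-PC 6 of 9, and between the compounds 3 of 10. Of the genes not called, 5 of 24, 9 of 40 and 4 of 39 passed in at least 1 alternative. Leaving out 1 library at a time gave 17 to 20 rises and 4 to 6 falls with 15d-PGJ2, 6 to 8 rises and 0 to 2 falls with 15d-PGJ2-PC, and 0 to 2 higher and 4 to 8 lower genes between the compounds. For the other translation genes the same gave 15 to 17 rises and 6 to 10 falls with 15d-PGJ2, 7 to 10 rises and 4 to 5 falls with 15d-PGJ2-PC, and 3 to 6 higher and 5 to 9 lower genes between the compounds. Quantile normalization gave 23 rises and 3 falls with 15d-PGJ2, 13 rises and 1 fall with 15d-PGJ2-PC, and 0 higher genes between the compounds. It shifted the median over all tested genes by 0.02, 0.00 and -0.02 in the 3 contrasts, from -0.02, 0.00 and 0.02. Under it the elongation factor gene Eef1a1 changed sign, to 0.0459 in both contrasts with control, where its rank against Lyz2 differed as given above. Without the trend 17 genes rose with 15d-PGJ2, 1 gene fell with 15d-PGJ2-PC, and 0 were higher and 5 lower between the compounds. Median ratio scaling, no filter and the 6 libraries of the contrast alone each gave 0 higher genes between the compounds. The cause of these changes was not tested. Same-numbered libraries of different groups did not deviate together (correlation across genes -0.04 to 0.05, 0 of 9 pairs over 0.1). This gave no sign of pairing by number, but with 3 libraries per group a weak pairing could go unseen. With the replicate block 19 initiation factor genes rose and 5 fell with 15d-PGJ2, 8 rose and 2 fell with 15d-PGJ2-PC, and 2 were higher and 8 lower between the compounds. Under it Eif3l with 15d-PGJ2 (adjusted p = 0.0586) and Eif4g1 between the compounds (0.0574) did not pass, and Eif2b3 with 15d-PGJ2-PC (0.0497) and Eif2a between the compounds (0.0455) did. Depth limits the low genes most: Eif4ebp3 and Eif5a2 rest on few reads, and their intervals are wide.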
